A study of Caenorhabditis elegans with 2 samples.

Results

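Aminoacyl-tRNA synthetase genes encode the enzymes that join each amino acid to its transfer RNA (tRNA), and were examined here as sites of ZTF-16 in the late embryo of Caenorhabditis elegans. They were taken as the protein-coding genes of Ensembl on WBcel235, the assembly also called ce11, whose name is 1 letter followed by ars- and a number. This gave 32 genes among 19973 protein-coding genes on the 6 nuclear chromosomes, with 1 gene for 9 amino acids, 2 genes for 10 and 3 genes, fars-1, fars-2 and fars-3, for phenylalanine. The RefSeq product of 30 of the 32 named a tRNA ligase or synthetase. The products of dars-2 and nars-2 named a class II synthetase family domain only.

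The data are ChIP-seq peak lists for ZTF-16, a zinc-finger protein related to Hunchback and Ikaros. Worms of strain OP558 carried the integrated transgene wgIs558, which encodes ZTF-16 with a carboxyl-terminal GFP-FLAG tag, in an unc-119(tm4063) background, and chromatin was precipitated with an antibody against GFP. Both samples were whole late embryos of mixed sex, 5 hours after synchronisation by egg bleaching, so all cell types of the embryo were mixed. They are biological replicates 1 and 2 of 1 group, with no second genotype, treatment or stage, so no test between groups was possible and values are described.

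Synthetases work in the cytoplasm or in mitochondria, where a separate set of enzymes, or an alternative form of the same enzyme, charges the mitochondrial tRNAs. Each enzyme reads features of its own tRNAs and supplies charged tRNA to the ribosome. The tRNAs themselves are made by RNA polymerase III, while the synthetase genes are transcribed by RNA polymerase II like other protein-coding genes.

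Each replicate has a relaxed peak list (21235 peaks for replicate 1 and 18242 for replicate 2), as does the pool of both (14968 peaks). By its deposited name the relaxed pooled list holds background as well as peaks. The irreproducible discovery rate (IDR) procedure left 822 pooled peaks, the IDR-thresholded list. A peak was assigned to a gene when its summit lay in the promoter window, which begins 1000 bp before the gene's 5′ end and ends 200 bp after it. The authors' signal value ran from 28.4 to 835 in the relaxed pooled list and was compared only within a list, and rank 1 is the strongest peak of a list. No read counts are in the lists, so depth is unknown.

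Sequences at 4 sites of synthetase genes are shown here, and their base compositions differ widely. A site in an intron of fars-1 (rank 79, 52.5% G+C), stronger than all of these but that of ears-2, is not shown. The 4 sequences are read from the RefSeq genome of WBcel235 on the minus strand, which is the coding strand of all 4 genes. They hold no exon of a protein-coding gene. Capitals mark CG dinucleotides. The ears-2 sequence is the whole gap of 91 bp between ears-2 and uncp-18 (IV:390469-390559), and the kars-1 sequence covers 101 bp around its summit (II:7072728-7072828). These are the IDR-thresholded promoter sites. The tars-1 sequence (II:11694661-11694761) is an IDR-thresholded site in an intron, and the aars-1 sequence (II:11464545-11464645) is the strongest promoter site that the IDR threshold left out.
ears-2: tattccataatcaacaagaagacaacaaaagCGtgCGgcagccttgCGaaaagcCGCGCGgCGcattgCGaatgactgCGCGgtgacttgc
kars-1: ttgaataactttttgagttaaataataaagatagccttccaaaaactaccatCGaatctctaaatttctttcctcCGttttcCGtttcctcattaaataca
tars-1: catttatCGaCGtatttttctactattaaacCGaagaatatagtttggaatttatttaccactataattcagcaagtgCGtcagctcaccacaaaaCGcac
aars-1: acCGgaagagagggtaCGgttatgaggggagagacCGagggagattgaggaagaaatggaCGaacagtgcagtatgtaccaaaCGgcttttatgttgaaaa

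ZTF-16 was detected above the IDR threshold in the promoter windows of 2 of the 32 synthetase genes, ears-2 and kars-1. That is 6.25% of the genes (Wilson 95% interval 1.73 to 20.1, counting error over genes only), where 3.29% of all protein-coding genes had such a summit. The interval holds the share of all genes, so the count is not distinguishable from the background at this number of genes. The results below therefore rest on the individual sites.

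The gene ears-2, annotated as a mitochondrial non-discriminating glutamyl-tRNA synthetase, had the strongest site of the family by a wide margin. Enzymes of this kind charge both the glutamate and the glutamine tRNAs with glutamate, as is known from mitochondria and bacteria. The summit lay at IV:390479 (peak IV:390359-390622), 11 bp upstream of the 5′ end and in the gap shown above. Its signal was 377 in the relaxed pooled list, rank 13 of 14968. In replicate 1 the matching peak had signal 188 and rank 15, with its summit at the same base. In replicate 2 it had signal 194 and rank 12, with its summit 28 bp away. Both replicates placed this site among their 15 strongest peaks. The summit also lay 81 bp upstream of the 5′ end of uncp-18, whose product is annotated as syntaxin-binding protein 1, a protein of vesicle fusion, and which runs in the opposite direction. The peak spans both 5′ ends, so the lists cannot assign the site to either gene. No tRNA, snoRNA, snRNA, rRNA or miRNA gene lay within 200 bp. A weaker pooled summit (signal 38.1, rank 6140) lay 212 bp upstream of ears-2, in a coding exon of uncp-18.

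The gene kars-1, annotated as lysine-tRNA ligase, had the other IDR-thresholded promoter site. The summit lay at II:7072778 (peak II:7072558-7072997) between genes, 363 bp before the start of kars-1, with signal 118 and rank 329 in the relaxed pooled list. The matching peak had signal 55.9 and rank 433 in replicate 1, and signal 62.5 and rank 308 in replicate 2. The replicates ranked it alike, but their summits did not coincide, since that of replicate 2 was 84 bp from the pooled summit and that of replicate 1 was 2 bp from it. The next gene upstream, kat-1, a thiolase gene, lies on the other strand across a gap of 1398 bp from kars-1. No other protein-coding gene had the pooled summit in its window. The replicate 2 summit, however, also lay in the window of kat-1, 952 bp upstream of the kat-1 5′ end.

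**Figure D1:**
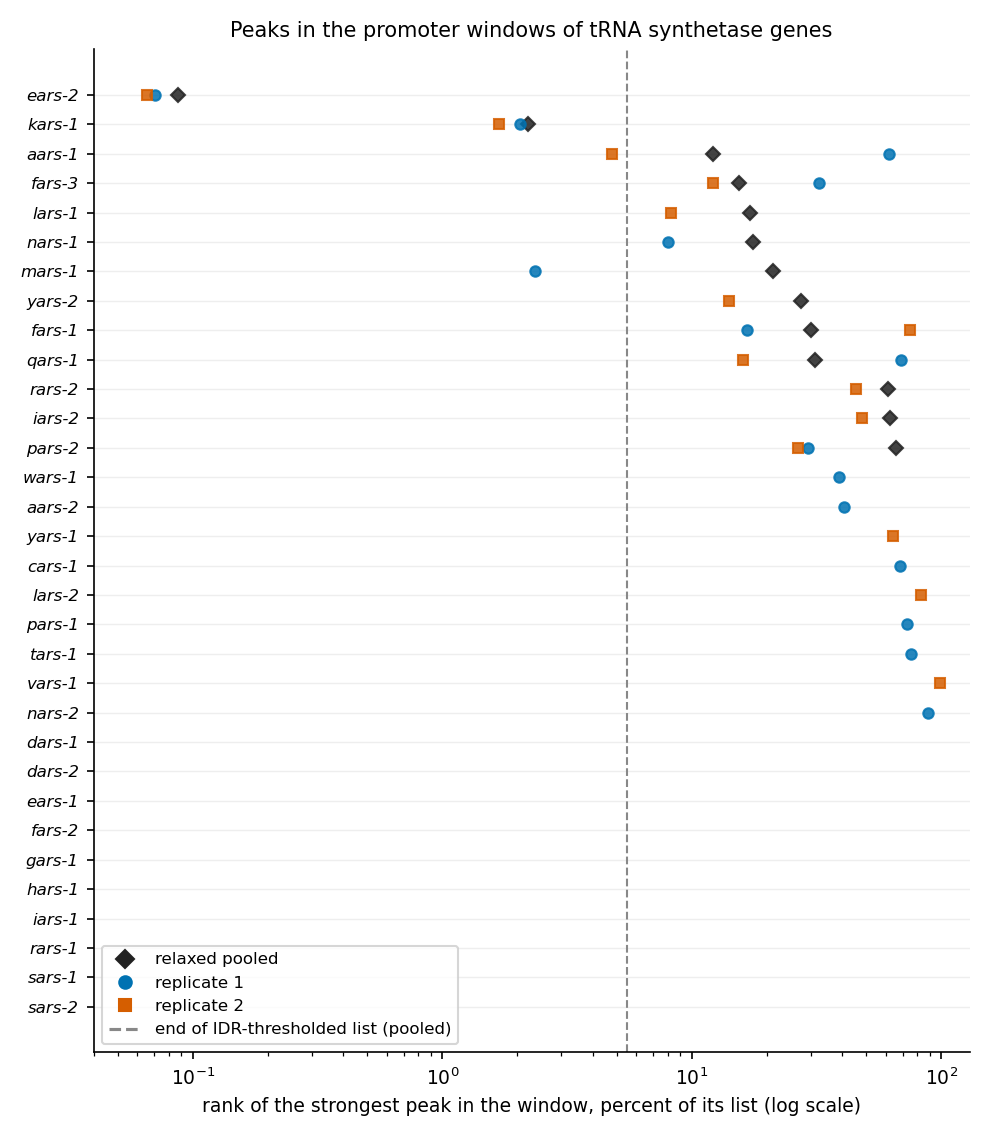
Rank of the strongest peak in the promoter window of each of the 32 synthetase genes, as a percent of the length of its list on a log scale, for the relaxed pooled list (diamonds), replicate 1 (circles) and replicate 2 (squares). Only ears-2 and kars-1 have pooled peaks to the left of the dashed line, the end of the IDR-thresholded list. The 10 genes at the bottom have no summit in the window in any list.

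IDR-thresholded summits also lay inside 2 synthetase genes, fars-1 and tars-1, outside their promoter windows. Over all protein-coding genes 1.17% had such a summit anywhere in the gene body. The fars-1 gene encodes phenylalanine-tRNA ligase, and its site lay in an intron at I:6212828, 1857 bp downstream of the 5′ end, with signal 211 and rank 79. Replicate 1 listed it with signal 82.2 and rank 175, and replicate 2 with signal 123 and rank 51. The snoRNA gene T08B2.13 lay within 200 bp of this summit, and the summit was also in the window of mrpl-23, a mitochondrial ribosomal protein gene. The part of the snoRNA gene in this site was not tested.

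The tars-1 gene encodes a threonine-tRNA ligase annotated as cytoplasmic, and its site lay in an intron at II:11694711 with signal 78.0 and rank 809, near the end of the 822 peaks. The replicates differed widely here, with signal 53.6 and rank 478 in replicate 1 against signal 18.4 and rank 10280 in replicate 2. The site was 946 bp downstream of the 5′ end of the gene record but 418 bp upstream of the nearest of the 3 transcript 5′ ends annotated for tars-1. Counted from all transcript 5′ ends, tars-1 became the third synthetase gene with an IDR-thresholded promoter summit.

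**Figure D2:**
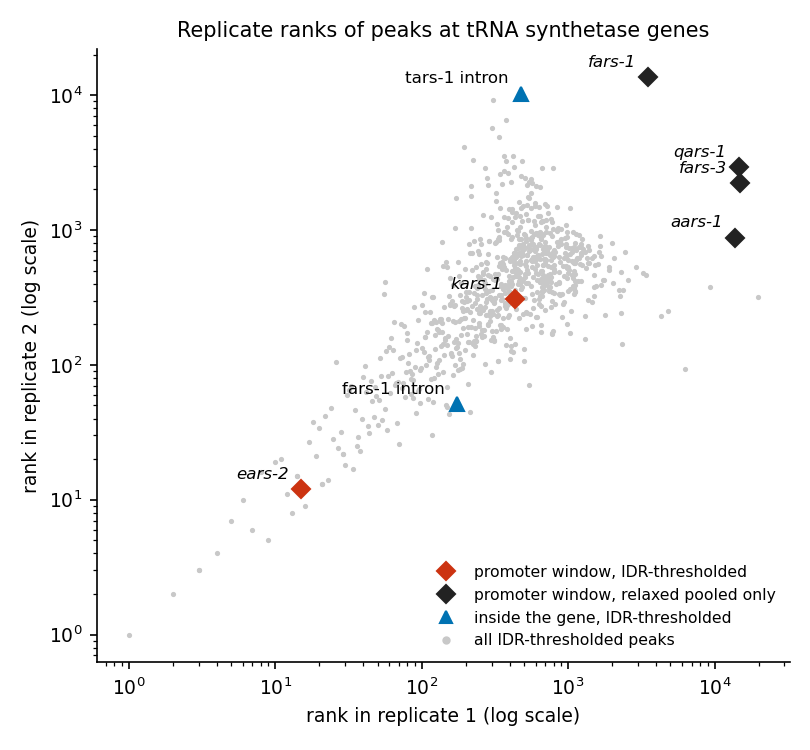
Rank in replicate 1 against rank in replicate 2, both on log scales, for the synthetase genes' sites matched within 200 bp in both replicates (red where IDR-thresholded in the promoter window, black where relaxed, blue triangles inside the gene), over the 818 IDR-thresholded peaks that matched in both (grey). The ears-2 site, with rank 15 in replicate 1 and 12 in replicate 2, lies toward the strongest end of the plot. The kars-1 promoter and fars-1 intron sites have similar ranks in both replicates or differ modestly, while the tars-1 intron site has rank 478 in replicate 1 and 10280 in replicate 2.

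Weaker peaks, which may include background, were listed in the promoter windows of more synthetase genes. The relaxed pooled list had a summit in the windows of 13 of the 32 genes (40.6%, Wilson interval 25.5 to 57.7), beside 23.5% of all protein-coding genes. Replicate 1 had one for 15 genes (46.9%) beside 29.4% of all genes, and replicate 2 for 14 (43.8%) beside 26.2%. Both replicates had one for 7 genes (21.9%, interval 11.0 to 38.8) beside 15.7%. The intervals for the pooled list and for each replicate lie above the share of all genes except that of both replicates together, which holds it. Since the genes were chosen with earlier results known, no test was made of these shares.

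Among the genes of the relaxed pooled list, the strongest after kars-1 was aars-1, annotated as the mitochondrial alanine-tRNA ligase. Its pooled summit lay 98 bp upstream of the 5′ end (II:11464595) with signal 55.6 and rank 1828. Replicate 2 listed the site with signal 39.2 and rank 877, but in replicate 1 it had signal 17.2 and rank 13857, below the median signal of that list (18.9). The replicates thus differed widely in its rank.

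The fars-3 gene encodes a beta subunit of phenylalanine-tRNA ligase. Its pooled summit lay 41 bp upstream (signal 51.2, rank 2318), with rank 14856 in replicate 1 and 2219 in replicate 2. A second pooled summit, with signal 35.7, lay 168 bp downstream in an intron of fars-3 and was matched in replicate 1 alone. For qars-1, the glutamine-tRNA ligase gene, the summit lay 99 bp upstream (signal 41.3, rank 4678), with rank 14698 in replicate 1 and 2937 in replicate 2. At aars-1, fars-3 and qars-1 alike, replicate 2 ranked the site far higher than replicate 1. The fars-1 promoter site went the other way, with rank 3528 in replicate 1 and 13610 in replicate 2. It lay 879 bp upstream (signal 41.8), in an untranslated exon of T08B2.15 and nearer to the 5′ end of rbm-5.

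For the other 7 genes of the pooled list, 1 replicate alone had a summit within 200 bp of the strongest pooled summit. Replicate 1 alone had it for mars-1, the methionine-tRNA ligase gene, and nars-1, the asparagine-tRNA ligase gene. The mars-1 peak of replicate 1 had signal 52.8 and rank 499, while replicate 2 listed no summit in the window. The stronger of the pooled mars-1 summits had signal 46.6 and rank 3166. The nars-1 peak had signal 32.5 and rank 1702 in replicate 1 and signal 49.1 in the pool, and its summit, 345 bp upstream, was a little closer to the 5′ end of nduf-6, a gene for a subunit of respiratory complex I. Replicate 2 alone had it for lars-1 (rank 1502), yars-2 (rank 2569), pars-2 (rank 4881), rars-2 (rank 8312) and iars-2 (rank 8766), the leucine, tyrosine, proline, arginine and isoleucine enzymes. The pooled signals of these 5 genes were 49.6 at lars-1, 42.96 at yars-2, 32.9 at pars-2, 33.7 at rars-2 and 33.5 at iars-2. The iars-2 summit lay in an intron of C25A1.16, and the nearest 5′ end was that of nola-3. The pars-2 window held a further replicate 1 summit, 424 bp upstream, that did not match the pooled summit at 94 bp.

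A pooled listing did not always rest on both replicates. The strongest pooled summit was matched within 200 bp in both replicates for 6 of the 13 genes (46.2%), namely aars-1, ears-2, fars-1, fars-3, kars-1 and qars-1. Over the 4688 protein-coding genes with a pooled summit the share was 55.5%, which is close to that of the 13 genes at this number.

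The remaining 19 genes had no pooled summit in the window. Replicate 1 alone listed a summit for aars-2, cars-1, nars-2, pars-1, tars-1 and wars-1, with signals from 15.3 to 20.5, and replicate 2 alone for lars-2, vars-1 and yars-1, with signals from 15.0 to 17.7. The peaks of aars-2 (signal 20.2) and wars-1 (signal 20.5) lay above the median signal of the replicate 1 list, 18.9. The other 7 genes had signals below the median of their list, which was 19.1 in replicate 2. No list had a summit in the windows of 10 genes. These were dars-1, dars-2, ears-1, fars-2, gars-1, hars-1, iars-1, rars-1, sars-1 and sars-2. Lacking a summit was common, since 15285 of the 19973 protein-coding genes had no relaxed pooled summit in the window. Shares over all genes were not computed for a summit in 1 replicate alone or in no list. The other glutamate-tRNA ligase gene, ears-1, had no summit in its window in any list, while the window of ears-2 held one of the strongest peaks of the data. That peak also spans the 5′ end of uncp-18 and cannot be assigned to either gene.

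**Figure D3:**
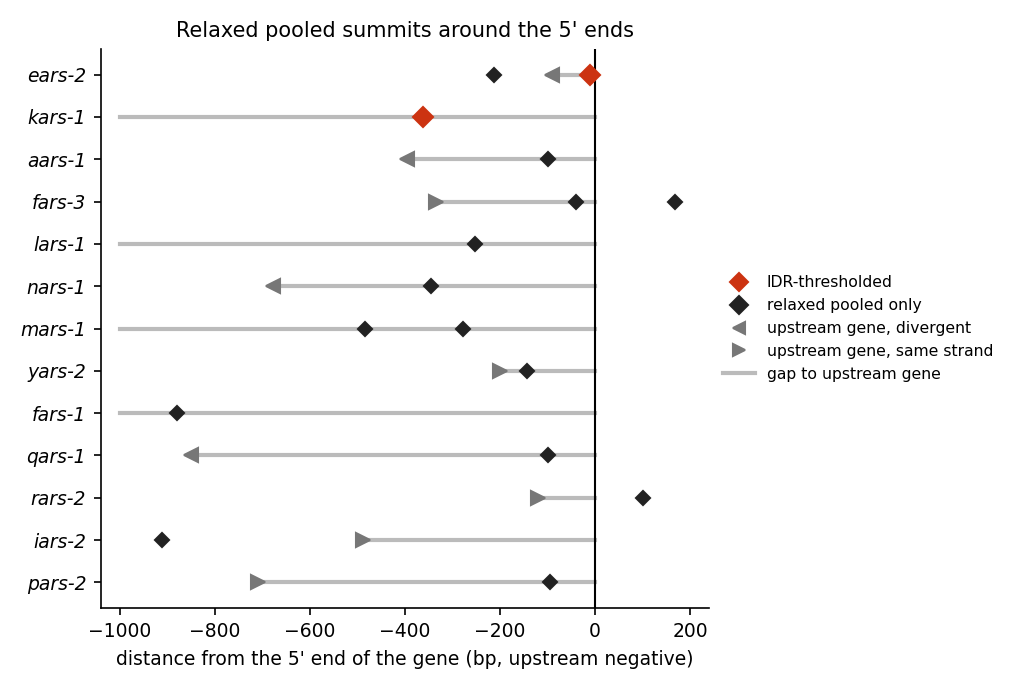
Relaxed pooled summits (diamonds, red where IDR-thresholded) by distance from the 5′ end of the 13 synthetase genes that have one, with the gap to the next gene upstream as a grey line ending in an arrowhead for its direction where the gap is under 1000 bp. The ears-2 summit sits 11 bp upstream inside a gap of 91 bp, and the kars-1 summit 363 bp upstream in a gap of 1398 bp.

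Position and neighbours varied among the 13 genes. Their strongest pooled summits had a median distance of 143 bp from the 5′ end, on the upstream side, against 282.5 bp over the 4688 protein-coding genes with one, which is a description of the relaxed list. It was intergenic for 10 genes, intronic for rars-2 and iars-2, and in an untranslated exon for fars-1. Only rars-2 had it downstream of the 5′ end, by 101 bp. The synthetase had the nearest 5′ end for 10 of the 13, and another gene was nearer for fars-1, iars-2 and nars-1. Shares over all protein-coding genes were not computed for location or nearest 5′ end, so these counts have no background. The next gene upstream was divergent for 18 of the 32 synthetase genes, of which 8 had a pooled summit, and on the same strand for 14, of which 5 had one. Over all protein-coding genes a pooled summit was listed for 28.3% of those with a divergent upstream gene and for 19.5% of those with one on the same strand. No strongest pooled summit of a synthetase gene lay within 200 bp of a tRNA, snoRNA, snRNA, rRNA or miRNA gene. The share over all protein-coding genes was not computed for this, so it cannot be read as a trait of the family.

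By annotated compartment, all 4 genes whose RefSeq product names mitochondria (aars-1, ears-2, pars-2 and rars-2) had a relaxed pooled summit. Among these, only ears-2 had an IDR-thresholded summit, and the strongest pooled summits of pars-2 and rars-2 were matched in replicate 2 alone. Of the 10 genes whose product names the cytoplasm, mars-1 and nars-1 had a relaxed pooled summit, matched in replicate 1 alone. The product names no compartment for 18 genes, of which 7 had one, so most of the family is not sorted by this label. The share over all protein-coding genes was 23.5%. By chromosome, a pooled summit was listed for 4 of 9 genes on I, 4 of 5 on II, 1 of 6 on III, 4 of 8 on IV and 0 of 4 on V, and no synthetase gene is on X. Over all protein-coding genes the share was 31.6% on I, 23.4% on II, 32.3% on III, 20.8% on IV and 16.7% on V. These numbers are small and no test was made of them.

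Base composition set the IDR-thresholded synthetase sites far apart. The 101 bp around the ears-2 summit were 64.4% G+C with 17 CG dinucleotides, and 9 of the 822 IDR-thresholded sites (1.09%) were richer. Of these bases, 40 lie inside ears-2 and carry 7 of the CG dinucleotides, while the other 61 lie in the gap and carry 10. Those around the kars-1 summit were 29.7% G+C with 3 CG dinucleotides, and 18 of 822 (2.19%) were poorer. All 822 sites had 48.8% ± 8.07 (SD over sites) and a median of 7 CG dinucleotides. The whole gap shown above for ears-2 was 53.8% G+C, nearer to that mean. It holds 10 CG dinucleotides, and the end next to uncp-18, printed first, holds none. The tars-1 intron site had 34.7% and the fars-1 intron site 52.5% G+C. Over the 13 strongest pooled summits of synthetase genes the median was 31.7% G+C, with a range of 22.8 to 64.4. The median was 41.6% over the strongest pooled summits of all protein-coding genes with one, and 40.6% over all 14968 relaxed pooled peaks. From 250 bp before to 50 bp after the 5′ end, it was 33.1% over the 32 synthetase genes and 34.2% over all protein-coding genes.

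**Figure D4:**
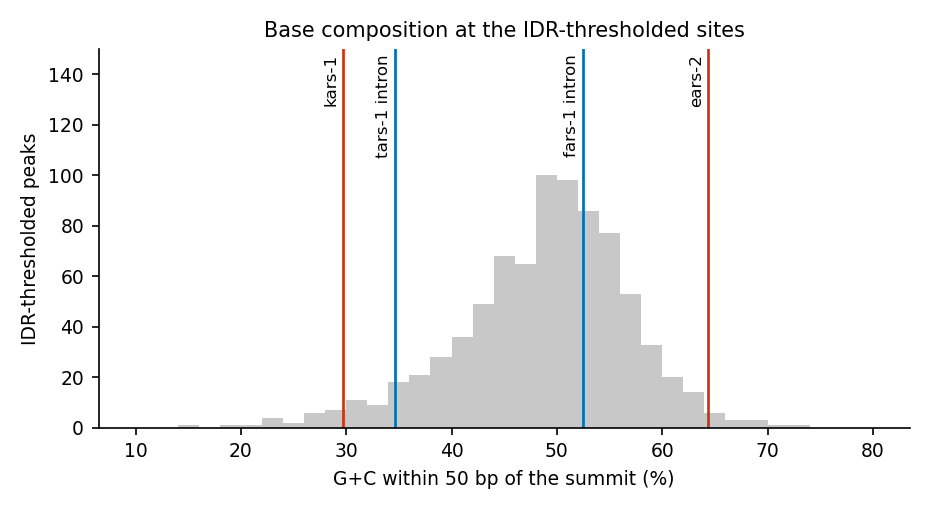
Histogram of the G+C content within 50 bp of the summit for the 822 IDR-thresholded peaks (grey, in steps of 2 percentage points), with lines for the promoter sites of kars-1 and ears-2 (red) and the intron sites of tars-1 and fars-1 (blue). The promoter sites lie at opposite ends of the distribution, at 29.7% and 64.4%.

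Short motifs were looked for on both strands within 50 bp of the summits. GGGAA, the core bound by Ikaros in mammals, and TTTTTT, a run like that bound by Hunchback in flies, were searched for together with the TATA box TATAAA, the GC box GGGCGG, the E-box CACGTG and the tRNA-gene B-box core GTTCGA. All of them were absent from these 101 bp at ears-2, kars-1 and the tars-1 intron. At the fars-1 intron site GGGAA was present. Among the 13 strongest pooled summits of synthetase genes GGGAA occurred at lars-1 and pars-2, TTTTTT at pars-2 and TATAAA at iars-2 and yars-2. Over all relaxed pooled peaks 19.8% held GGGAA, 35.6% held TTTTTT and 8.16% held TATAAA, and over the IDR-thresholded peaks the shares were 20.9%, 22.3% and 5.96%. In the wider promoter, from 250 bp before to 50 bp after the 5′ end, GGGAA was present in 18 of 32 synthetase genes (56.2%) and in 43.6% of all protein-coding genes, and TTTTTT in 28 (87.5%) and in 80.1%. TATAAA was present in 8 (25.0%) against 38.0% of all promoters. The remaining motifs were each in only 1 or 2 synthetase promoters, too few to be set apart from the shares of all promoters. GGGCGG was present in 2 (6.25%) against 7.87%, GTTCGA in 2 (6.25%) against 9.92% and CACGTG in 1 (3.12%) against 5.84%. No test was made of these shares.

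Among the nuclear tRNA genes, the share with an IDR-thresholded summit within 200 bp ran from 18.5% to 38.2% across amino acids. This rule differs from the promoter window and was applied to no other gene class, so the shares have no like background. Genes close together can share a summit, so genes and not sites were counted. An IDR-thresholded summit lay within 200 bp of 14 of 41 tRNA-Glu genes (34.1%, Wilson interval 21.6 to 49.5) and of 11 of 46 tRNA-Lys genes (23.9%, interval 13.9 to 37.9), the substrates of the glutamate and lysine enzymes. For threonine it was 13 of 34 (38.2%), the highest share, and for glutamine 5 of 27 (18.5%), the lowest. The interval of each of the 20 amino acids held the share over all 612 nuclear tRNA genes (27.6%). With 12 to 55 genes for each amino acid the intervals are wide and cannot show that the shares are alike. RefSeq gave an isotype for 607 of the 612. The ears-2 enzyme is annotated as mitochondrial, where the tRNAs come from the mitochondrial genome, so nuclear tRNA-Glu genes need not be its substrates.

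Other gene families of protein synthesis are given beside these counts, with no test of a difference. An IDR-thresholded summit was found in the windows of 22 of 68 cytosolic ribosomal protein genes (32.4%, interval 22.4 to 44.2), 7 of 34 translation factor genes (20.6%, interval 10.3 to 36.8) and 8 of 70 mitochondrial ribosomal protein genes (11.4%, interval 5.91 to 21.0). The synthetase interval overlaps those of the translation factor and mitochondrial ribosomal protein genes, and lies below that of the cytosolic ribosomal protein genes. In the relaxed pooled list the counts were 58 of 68, 27 of 34 and 33 of 70.

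A list drawn up for the making, modifying, exporting and sensing of tRNA had 57 members in the annotation. Of these, 5 had an IDR-thresholded promoter summit (8.77%, interval 3.81 to 18.9) beside 3.29% of all genes. The list also took in genes of other RNA functions, among them larp-1, adr-1 and nsun-1 of the 5. The share is therefore not that of tRNA genes alone. The strongest was larp-1, which encodes La-related protein 1, an RNA-binding protein (signal 175, rank 133 in the pool, 179 in replicate 1 and 122 in replicate 2). Next came adr-1, a regulator of RNA editing (signal 144, ranks 216, 194 and 292). The Elongator complex, which modifies the wobble base of tRNAs, had sites at elpc-2 (signal 99.5, ranks 490, 367 and 975) and elpc-4 (signal 87.2, ranks 650, 646 and 966). A further site was at nsun-1, an RNA methyltransferase gene whose annotated substrate is ribosomal RNA (signal 89.2, ranks 623, 557 and 876). The pooled summits lay 123 bp upstream of the 5′ end at elpc-2, 293 bp at nsun-1 and 659 bp at larp-1. Those of adr-1 (728 bp) and elpc-4 (952 bp) lay farther out, the last near the 1000 bp edge of the window. Whether another gene had a nearer 5′ end was not examined for these 5 sites. In the relaxed pooled list 29 of the 57 had a summit (50.9%), among them mafr-1, the repressor of RNA polymerase III (signal 74.1), and gcn-2, the kinase that senses uncharged tRNA (signal 51.1).

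**Figure D5:**
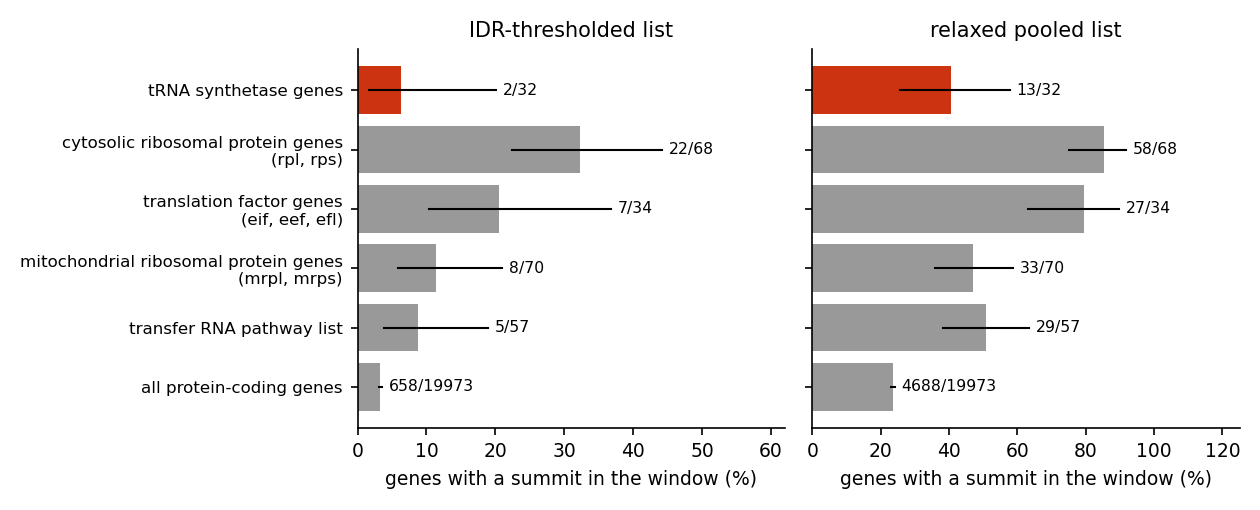
Share of genes with a summit in the promoter window, for the synthetase genes (red) and the other gene groups (grey), in the IDR-thresholded list (left) and the relaxed pooled list (right), with bars from 0, Wilson 95% intervals as lines and counts beside them. The synthetase genes stand at 6.25% and 40.6%, and all protein-coding genes at 3.29% and 23.5%.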

How the data were processed

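The peak lists of biological replicates 1 and 2, of their pool and of the IDR procedure were used in build ce11, in narrowPeak format per the deposited notes. Each relaxed list derives from its alignments and 1 further file that all 3 share, per those notes. The deposited signal of a peak is the output of the authors' caller. The sources used here do not give the aligner, the caller or the IDR threshold. The ce10 lists were not used here. Depth is unknown, so intervals cover counting error over genes, sites or tRNA genes only.

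Genes came from Ensembl release 115, and the genome, product names and tRNA isotypes from RefSeq on the same assembly, WBcel235. Summits were read as 1-based. A pooled summit was matched to the strongest summit of each replicate within 200 bp, so nearby pooled summits can share a match. The members and lists were chosen with earlier results of these data known, so no set test was made. Of 81 names in the tRNA list, 57 were in the annotation. Every synthetase gene is named, in full where it has an IDR-thresholded summit. Genes sharing such a summit, and up to 8 genes of the tRNA list, are named. T08B2.15, C25A1.16, nola-3, rbm-5, nduf-6, kat-1, mafr-1 and gcn-2, and the sequences shown for tars-1 and aars-1, were chosen after their values were seen.

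Assignment was tested on simulated summits. Alternatives varied the window, the 5′ ends, the overlap rule, the list length and the replicates used. Python 3.11.15, numpy 2.4.6, scipy 1.17.1 and matplotlib 3.10.9 were used.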

Additional observations from a re-analysis of the deposited data

How the results depend on the processing

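The count of synthetase genes with an IDR-thresholded promoter summit was 2 (ears-2 and kars-1) with windows of 500 and 2000 bp upstream, with peak overlap, with nearest 5′ ends, without peaks near small non-coding genes and in the upper part of the list. It was 3 with all transcript 5′ ends, which added tars-1. Leaving out 1 replicate gave 2 to 3, where the strongest 822 peaks of replicate 1 alone added mars-1. The relaxed pooled count of 13 ran from 10 to 16, and from 14 to 15 with 1 replicate alone, a setting chosen after the data were seen. Peak overlap added fars-2 and gars-1, which had no summit in the main window in any list. The count for both replicates, 7, became 12 with a 2000 bp window and 4 in the upper part of each relaxed list. The 4 were ears-2, fars-3, kars-1 and pars-2. The share of all protein-coding genes was not computed for these alternatives of the relaxed lists. Their counts therefore cannot be read against a background. The share of all protein-coding genes with an IDR-thresholded summit, 3.29%, became 2.56% with 500 bp, 4.29% with 2000 bp, 3.58% with peak overlap, 2.28% with nearest 5′ ends, 3.55% with all transcript 5′ ends, 2.97% without peaks near small non-coding genes and 1.67% in the upper part of the list. These shifts follow from the wider or narrower rule itself. No paired analysis was possible because there is 1 group and no comparison between groups.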

Other observations

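A search by RefSeq product instead of by name, chosen after the data were seen, found 33 genes, of which 3 are outside the name rule. These are glp-4, annotated as valine-tRNA ligase, K03B4.1, annotated as a seryl-tRNA synthetase, and prx-10, whose record also carries a mitochondrial tryptophan-tRNA ligase product. None of the 3 had an IDR-thresholded promoter summit, and the count stayed at 2 (ears-2 and kars-1). K03B4.1 had 1 relaxed pooled summit in its window and 2 in replicate 2, but none in replicate 1. The gene glp-4 had a summit in replicate 1 alone, and prx-10 had none in any list.

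The nearest IDR-thresholded summit to a synthetase 5′ end, on either side, was a median of 38725 bp away over the 32 genes and 48593 bp over all protein-coding genes. The range ran from 11 bp at ears-2 to 370298 bp at sars-1.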
